A study of Mus musculus with 9 samples.

Results

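The circadian clock genes are described here across the 3 layers of the outer mouse eye, the choroid (CH), the retinal pigment epithelium (RPE) and the photoreceptors (PR). The set held 10 genes, Arntl, Clock, Npas2, Per1, Per2, Per3, Cry1, Cry2, Nr1d1 and Dbp, and its members were the array probes, control spots left out, whose gene name equalled one of these symbols in any case. All 10 genes were on the array, with 12 probes of 39429, since Cry2 and Dbp each had 2 probes and the other genes 1. For these genes with 2 probes, values are those of the brighter probe unless the other one is named. The samples came from female C57BL/6 mice, of the J substrain in the study's methods, aged 6 months (range 2 weeks either way) in the labels and slightly younger in the methods. Animals were healthy and untreated, were raised on a regular light-dark cycle and were anesthetized with CO2/O2 before they were killed. The time of day at which eyes were collected, on which the level of clock transcripts can depend, is not given in the sources used here. For each layer 3 samples were cut from frozen sections by laser dissection, 1 whole eye per sample, with the RPE removed before the CH was cut and the PR found by cresyl violet. Each sample was labelled with Cy5 and hybridised on an Agilent 2-colour array beside a Cy3 common reference made from mouse RPE/choroid of the same strain, sex and age. The reference thus holds RNA of CH and RPE and no separately prepared PR. Values are log2(Cy5/Cy3), where 0 means the level of the reference, on each of the 9 arrays.

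The clock of mammalian cells is a feedback loop in transcription. ARNTL (BMAL1) pairs with CLOCK, or with NPAS2 in its place, and the pair binds E-box motifs in the promoters of the Per and Cry genes, whose proteins return to the nucleus and inhibit it. In a second loop the nuclear receptor NR1D1 (REV-ERB alpha) represses Arntl through a retinoid-related orphan receptor element (RRE), and the RORs act on the same element in the opposite direction. DBP is an output factor that is driven through E-boxes and binds D-boxes, among them those of the Per genes. In the eye, retinal clocks are known for daily rhythms in melatonin, dopamine and visual sensitivity, and the shedding of outer segments and their uptake by the RPE follow a daily rhythm too.

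The motifs of this loop were searched on both strands of the promoter window of each member (250 bases before to 50 after the annotated start, RefSeq, GRCm38.p6). Windows were found for 9 of the 10 members, 13 windows in all, and Per2 had none in the set used. Each match named below was in 1 window of its gene. The E-box CACGTG was in the windows of Per1 and Cry1 and in 7.15% of all 32851 windows. The related E-prime-box CACGTT, which cannot take the same position as CACGTG, was in those of Cry1, Cry2 and Nr1d1 and in 4.68% of all windows. The D-box letters TTATGTAA were in the Per3 window at 2 places and in 0.94% of all windows, and TTACGTAA was in no member's window and 0.12% of all. The RRE core TAGGTCA was in the Arntl window and in 2.61% of all windows, and TGGGTCA was in none of the members' windows and 3.98% of all. These are matches of letters and no test of binding. The 4 windows below are shown because they hold the motifs of the loop: Arntl (chr7:113207261-113207560, plus strand) with the RRE core at position 31, Per1 (chr11:69098699-69098998, plus strand) with the E-box at -166, Cry1 (chr10:85185005-85185304, minus strand) with the E-prime-box at -79 and the E-box at -60, and Per3 (chr4:151044616-151044915, minus strand) with D-boxes at -205 and -158. Positions are the leftmost base of the match counted from the annotated start, each sequence runs 5′ to 3′ on the strand of its gene, and capitals mark the motif.
Arntl: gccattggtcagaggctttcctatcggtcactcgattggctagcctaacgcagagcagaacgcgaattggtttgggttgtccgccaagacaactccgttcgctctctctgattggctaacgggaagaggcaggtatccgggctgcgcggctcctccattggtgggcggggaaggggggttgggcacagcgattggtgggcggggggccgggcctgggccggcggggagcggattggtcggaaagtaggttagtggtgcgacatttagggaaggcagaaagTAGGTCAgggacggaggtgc
Per1: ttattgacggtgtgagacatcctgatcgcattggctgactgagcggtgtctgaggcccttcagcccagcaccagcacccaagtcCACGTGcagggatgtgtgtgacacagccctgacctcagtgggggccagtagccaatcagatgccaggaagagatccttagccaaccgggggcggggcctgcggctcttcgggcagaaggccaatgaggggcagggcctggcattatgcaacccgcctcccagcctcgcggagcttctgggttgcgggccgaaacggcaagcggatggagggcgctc
Cry1: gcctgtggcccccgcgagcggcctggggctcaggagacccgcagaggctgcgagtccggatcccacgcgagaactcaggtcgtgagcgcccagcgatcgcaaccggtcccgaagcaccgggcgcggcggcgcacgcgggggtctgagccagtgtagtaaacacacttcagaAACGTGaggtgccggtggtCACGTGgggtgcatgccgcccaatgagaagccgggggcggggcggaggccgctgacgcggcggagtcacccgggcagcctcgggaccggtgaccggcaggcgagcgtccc
Per3: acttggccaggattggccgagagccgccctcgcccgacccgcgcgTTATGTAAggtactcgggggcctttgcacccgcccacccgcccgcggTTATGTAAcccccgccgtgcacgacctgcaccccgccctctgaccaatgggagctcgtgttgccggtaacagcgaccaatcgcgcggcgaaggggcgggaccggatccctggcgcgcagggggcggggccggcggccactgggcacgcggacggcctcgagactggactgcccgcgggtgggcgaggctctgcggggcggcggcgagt

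The activator Arntl, the repressor Per2 and the output factor Dbp differed strongly between PR and the other layers. Arntl was higher in PR than in RPE and CH, and Per2 and Dbp were lower in PR than in both. At a fold change (FC) above 2.5 and a Benjamini-Hochberg adjusted p-value below 0.01 over all probes (limma), these 3 of 10 members were called in RPE against PR, where 15.5% of all probes were called, 10.2% as higher in RPE and 5.22% as higher in PR. The same 3 of 10 were called in CH against PR, where 18.4% of all probes were called, 12.0% as higher in CH and 6.40% as higher in PR. In RPE against CH none of the 10 was called by limma, where 1.73% of all probes were (0.185% higher in RPE and 1.55% higher in CH). There Per1 and Per2 were the 2 members under an unadjusted p of 0.05, as were 33.6% of all probes. The comparisons share arrays and are not independent of each other. As these are dissected layers, fewer cells of a type and less RNA per cell cannot be told apart. RPE transcripts were also present in CH, as the markers below show.

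**Figure D1:**
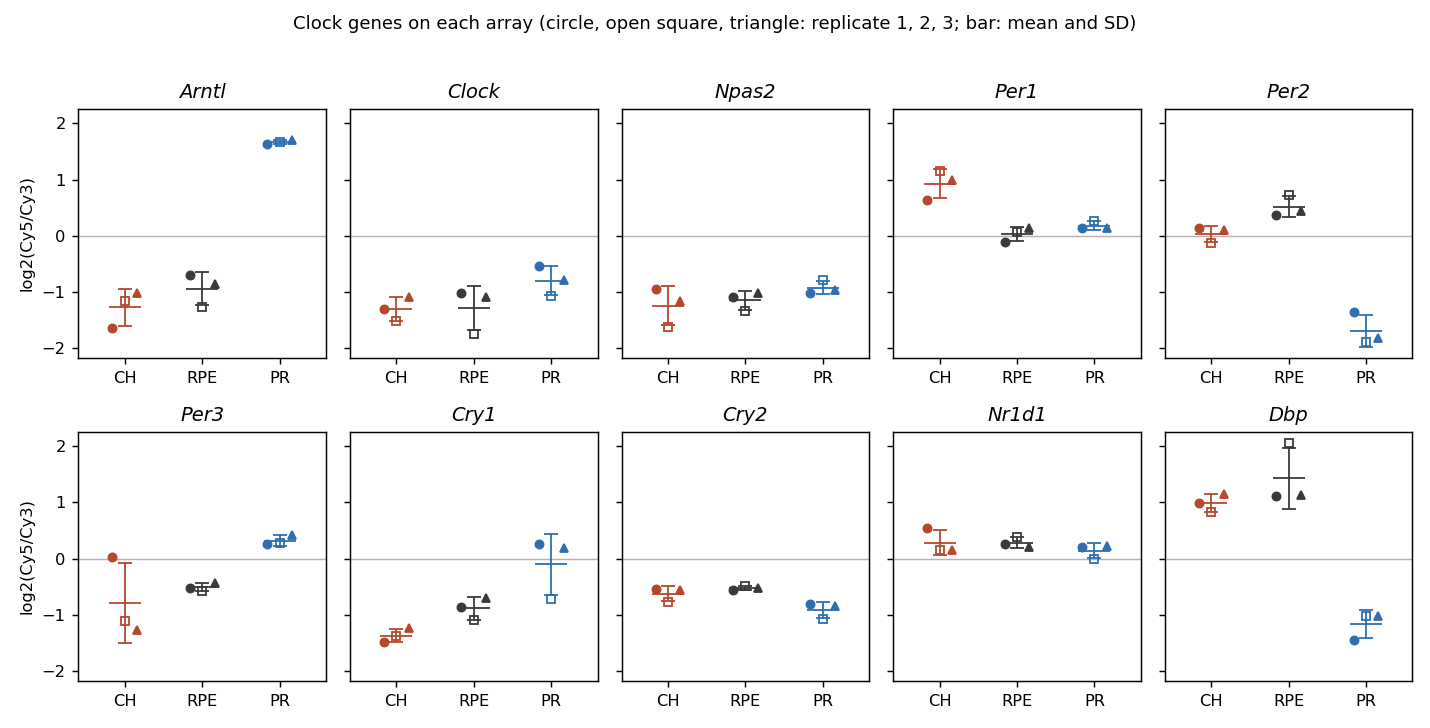
log2(Cy5/Cy3) of the 10 clock genes on the 3 arrays of CH, RPE and PR; points are arrays, horizontal bars the tissue mean and vertical bars the SD. Arntl spans 1.63 to 1.71 in PR and is below 0 on all other arrays, and Per2 and Dbp lie below -1 in PR only.

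Among the activators, Arntl was called in both comparisons with PR. The Arntl probe (NM_007489) lies at chr7:120457261-120457320 of mm9, the build of the array design. Its log2 ratio was -1.64, -1.15 and -1.02 on the CH arrays, -0.70, -1.26 and -0.86 on the RPE arrays, and 1.63, 1.66 and 1.71 on the PR arrays. All 3 PR arrays lay above all CH and RPE arrays, and CH and RPE overlapped. Arntl was 6.08-fold lower in RPE than in PR (log2 difference -2.60, SE 0.18, adjusted p 1.33e-06) and 7.66-fold lower in CH than in PR (-2.94, SE 0.18, adjusted p 4.47e-07). Between RPE and CH the log2 difference was 0.33 (SE 0.18, adjusted p 0.234) and did not pass the test. The SD over the 3 PR arrays was 0.038, against 0.32 in CH and 0.29 in RPE.

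Clock, the usual partner of ARNTL, was not called in any comparison. Its log2 ratio (NM_007715, chr5:76641377-76641436 of mm9) was -1.30, -1.52 and -1.08 in CH, -1.02, -1.74 and -1.09 in RPE, and -0.54, -1.06 and -0.78 in PR. Each array lay below the reference, and the PR arrays lay above the CH arrays but overlapped those of RPE. The log2 difference was -0.49 (SE 0.21, adjusted p 0.0804) for RPE against PR and -0.50 (SE 0.21, adjusted p 0.0689) for CH against PR, and neither passed the test, although CH against PR had an adjusted p of 0.00912 with a replicate block. For RPE against CH it was 0.014 (SE 0.21, adjusted p 0.974).

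Npas2, which can stand in for CLOCK, gave a dim signal. Its probe (NM_008719, chr1:39418941-39419000 of mm9) was well above background in Cy5 on 3 of the 9 arrays, 2 of PR and 1 of RPE, and on no CH array. The log2 ratios were -0.95, -1.63 and -1.16 in CH, -1.08, -1.34 and -1.02 in RPE, and -1.01, -0.78 and -0.97 in PR. The ratios of CH overlapped those of both other layers, and no fold is given against CH. With no block, no difference of Npas2 passed the test (adjusted p 0.303 for RPE against PR and 0.137 for CH against PR). CH against PR passed with a slide block (adjusted p 0.0066), a result that rests on CH arrays not well above background.

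The 3 Per genes, which encode the period repressors, each had a different order of layers. Per1 (NM_011065, chr11:68923364-68923423 of mm9) had log2 ratios of 0.64, 1.16 and 0.99 in CH, -0.12, 0.073 and 0.14 in RPE, and 0.13, 0.27 and 0.13 in PR. CH lay above both other layers on all its arrays, while RPE and PR overlapped. Per1 was 1.86-fold lower in RPE than in CH (log2 difference -0.90, SE 0.14, adjusted p 0.00177) and 1.68-fold higher in CH than in PR (0.75, SE 0.14, adjusted p 0.00104). Both passed the adjusted p and neither reached an FC of 2.5. Within slides the difference of RPE against CH was -0.80 on slide 1 and -1.09 on slide 2. Between RPE and PR it was -0.15 (SE 0.14, adjusted p 0.416). Per1 was the 1 member of 10 with an adjusted p below 0.01 in RPE against CH, where 12.1% of all probes were below it (5.18% higher in RPE and 6.91% higher in CH). This adjusted p was 0.0266 on the Cy5 channel alone, 0.0317 in the authors' value table and 0.0246 without slide 2. That of CH against PR was also above 0.01 under 5 of 23 alternatives, at 0.0108 with median centring, 0.0131 on Cy5 alone, 0.0135 in the value table, 0.0149 with a slide block and 0.0105 without slide 2.

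In RPE against CH, Per1 moved with the fibroblast markers and with some of the melanocyte markers. Of the fibroblast markers 6 of 6 were called higher in CH than in RPE, and the log2 of their summed Cy5 signal was 19.8 to 19.9 in CH, 18.1 to 18.5 in RPE and 15.5 to 15.9 in PR. All 6 were also called higher in RPE than in PR, a pair of layers in which the arrays of Per1 overlapped. Of the melanocyte markers 2 of 4 were called higher in CH than in RPE, with a log2 sum of 19.6 to 19.8 in CH and 19.1 to 19.3 in RPE. In these sums Cy5 was saturated for Dcn on all 3 CH arrays, and for Dct on all arrays of CH and RPE. None of 5 endothelial and none of 4 muscle markers was called between RPE and CH, and 1 of 4 leukocyte markers was called higher in CH. The part of these markers in the Per1 result was not tested.

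Per2 was lowest in PR, where Arntl was highest. Its log2 ratio (NM_011066, chr1:93313046-93313105 of mm9) was 0.14, -0.13 and 0.10 in CH, 0.37, 0.72 and 0.45 in RPE, and -1.36, -1.88 and -1.82 in PR. The layers did not overlap, with RPE highest and PR lowest. Per2 was 4.60-fold higher in RPE than in PR (log2 difference 2.20, SE 0.16, adjusted p 1.71e-06) and 3.31-fold higher in CH than in PR (1.73, SE 0.16, adjusted p 7.76e-06). The step from CH to RPE, 0.48 (SE 0.16, adjusted p 0.0574), did not pass the test.

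Per3 was higher in PR than in CH by the adjusted p alone, and under most alternatives it did not pass that either. The log2 ratio (NM_011067, chr4:150379256-150379315 of mm9) was 0.028, -1.11 and -1.27 in CH, -0.51, -0.57 and -0.44 in RPE, and 0.25, 0.27 and 0.43 in PR. PR lay above both other layers, and CH 1 lay above all RPE arrays while CH 2 and CH 3 lay below them. The difference was -1.10 for CH against PR (2.15-fold, SE 0.28, adjusted p 0.00723) and -0.83 for RPE against PR (SE 0.28, adjusted p 0.0325). RPE against CH gave 0.28 (SE 0.28, adjusted p 0.545). The adjusted p of CH against PR was above 0.01 under 14 of 23 alternatives, among them median centring (0.0218), Cy5 alone (0.0303), the value table (0.0322), the 6 arrays of both layers alone (0.0228), the slide block (0.0599) and the data without slide 2 (0.0777). It was 0.0298 without CH 2 and 0.0256 without CH 3, and was above 0.01 without any 1 array of RPE or PR. Without CH 1 the difference of CH against PR was -1.51 (adjusted p 5.65e-06), past the FC of 2.5. The same array also decided the other comparisons by adjusted p, since without it RPE against CH was 0.69 (adjusted p 0.00404) and RPE against PR -0.83 (adjusted p 0.000118). RPE against PR passed with the arrays of these 2 layers alone as well (adjusted p 0.00022).

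The cryptochromes are partners of the PER proteins in repression, and of these Cry1 was higher in PR than in CH. Cry1 (NM_007771, chr10:84594731-84594790 of mm9) had log2 ratios of -1.49, -1.37 and -1.24 in CH, -0.86, -1.10 and -0.70 in RPE, and 0.25, -0.72 and 0.18 in PR. CH lay below both other layers on all its arrays, whereas PR 2 lay among the RPE arrays. The difference of CH against PR was -1.27 (2.41-fold, SE 0.23, adjusted p 0.00105), that of RPE against PR -0.79 (SE 0.23, adjusted p 0.0175) and that of RPE against CH 0.48 (SE 0.23, adjusted p 0.185). Only the difference between CH and PR passed the adjusted p. It did not pass with median centring (0.0113), on Cy5 alone (0.0754), in the value table (0.0889) or with a slide block, where it was -0.76 (adjusted p 0.0102). RPE against PR passed with a replicate block (0.00745), with the Feature Extraction log ratio (0.0091), without PR 2 (0.000144) and without slide 2 (0.000948). Within slide 2, with 1 array on each side, CH against PR was -0.65. With all arrays the difference of CH against PR lay just below the FC of 2.5. CH against PR was called without PR 2 (-1.58, adjusted p 1.19e-05), without CH 3 (-1.33, adjusted p 0.00264) and without slide 2 (-1.58, adjusted p 0.000102).

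For Cry2 the brighter probe (NM_009963, chr2:92243807-92243866 of mm9) gave -0.54, -0.77 and -0.56 in CH, -0.56, -0.48 and -0.52 in RPE, and -0.80, -1.08 and -0.85 in PR. PR lay below the other layers on all arrays, by 0.39 against RPE (SE 0.11, adjusted p 0.0113) and by 0.29 against CH (SE 0.11, adjusted p 0.042), and neither passed the threshold of 0.01. The other Cry2 probe, for transcript variant NM_001113333 (chr2:92251417-92251476 of mm9), gave 0.44, 0.59 and -0.33 in CH, -0.27, 0.0048 and -0.64 in RPE, and -0.54, -0.37 and -0.74 in PR. It differed from the brighter probe in RPE against CH, with -0.53 (SE 0.24, adjusted p 0.156) where the brighter probe had 0.10 (SE 0.11, adjusted p 0.564), and neither difference passed. For CH against PR both probes were higher in CH, the other one by 0.78 (SE 0.24, adjusted p 0.0203), and their median passed (0.54, adjusted p 0.005).

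Nr1d1, the repressor of Arntl in the second loop, differed between the 3 layers by less than the spread of the arrays. Its log2 ratio (NM_145434, a probe of 60 bases over chr11:98630526-98631028 of mm9) was 0.54, 0.16 and 0.15 in CH, 0.26, 0.39 and 0.20 in RPE, and 0.21, -0.015 and 0.22 in PR. All 3 layers overlapped. The differences were 0.0015 for RPE against CH (SE 0.13, adjusted p 0.996), 0.15 for RPE against PR (SE 0.13, adjusted p 0.389) and 0.14 for CH against PR (SE 0.13, adjusted p 0.386).

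Dbp, the output factor, was low in PR. Its brighter probe (NM_016974, chr7:52965461-52965520 of mm9) gave log2 ratios of 1.00, 0.83 and 1.14 in CH, 1.11, 2.06 and 1.12 in RPE, and -1.45, -1.02 and -1.02 in PR. CH and RPE overlapped, and all their arrays lay above the reference and all PR arrays below it. Dbp was 6.02-fold higher in RPE than in PR (log2 difference 2.59, SE 0.24, adjusted p 1.15e-05) and 4.43-fold higher in CH than in PR (2.15, SE 0.24, adjusted p 3.64e-05). Both log2 differences were lower, and still called, on the Cy5 channel alone (1.84 and 1.60) and in the authors' value table (1.85 and 1.63). Its other probe (chr7:52965322-52965381 of mm9) differed by 2.12 (SE 0.22, adjusted p 2.28e-05) and 1.82 (SE 0.22, adjusted p 5.65e-05). For RPE against CH the brighter probe gave 0.44 (SE 0.24, adjusted p 0.247), and the value within slides was 0.045 on slide 1 and 1.23 on slide 2, which held RPE 2.

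**Figure D2:**
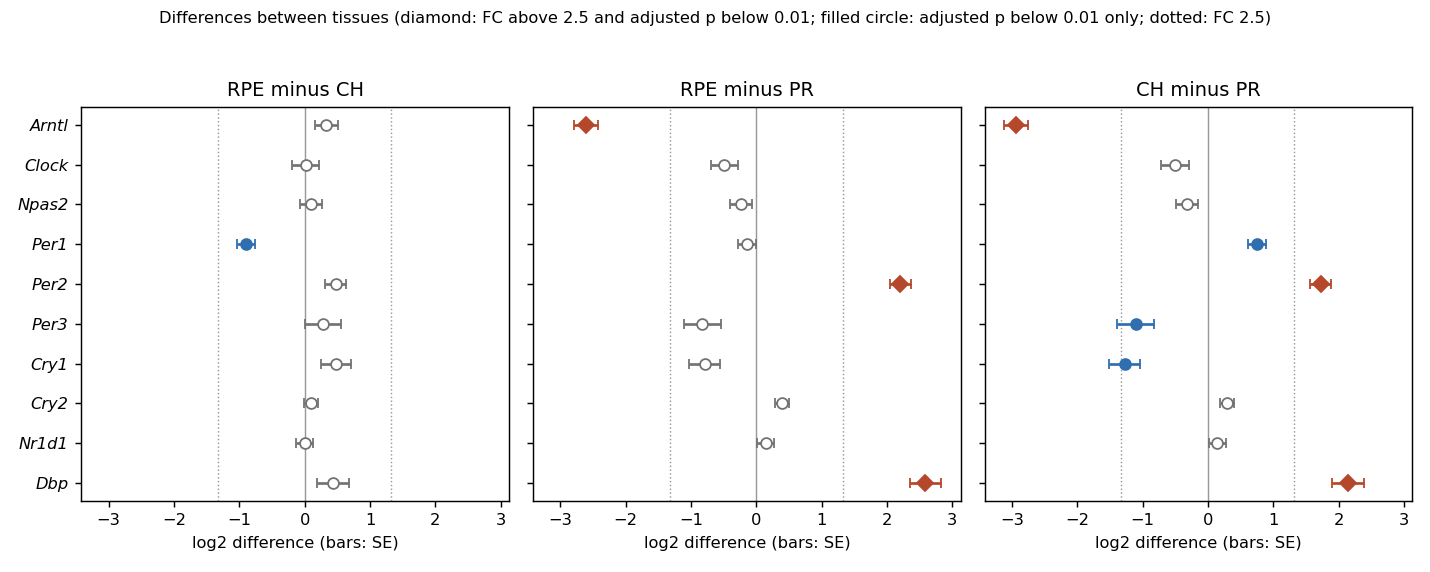
log2 differences of the 10 clock genes between layers with their SE; dotted lines mark an FC of 2.5. Arntl (-2.60 and -2.94), Per2 (2.20 and 1.73) and Dbp (2.59 and 2.15) pass both thresholds against PR, and no gene does between RPE and CH.

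Relative to the reference, Dbp and Per2 lay above Arntl in CH and RPE and below it in PR. Dbp minus Arntl, taken within each array, was 1.98 to 2.63 in CH, 1.81 to 3.31 in RPE and -3.08 to -2.68 in PR. Per2 minus Arntl was 1.02 to 1.77 in CH, 1.07 to 1.98 in RPE and -3.55 to -2.99 in PR. These values compare each gene with its own level in the reference and are not ratios of transcript amounts between genes.

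Within the Per and Cry families the members also parted by layer. Per2 minus Per3 was 0.11 to 1.38 in CH, 0.88 to 1.29 in RPE and -2.25 to -1.62 in PR. Per2 minus Per1 was above 0 on the RPE arrays alone (0.31 to 0.65), and was -1.29 to -0.50 in CH and -2.16 to -1.50 in PR. Cry2 minus Cry1 was 0.61 to 0.95 in CH, 0.18 to 0.62 in RPE and -1.06 to -0.36 in PR. No p is given for these pairs, which were chosen with the values of the members known.

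**Figure D3:**
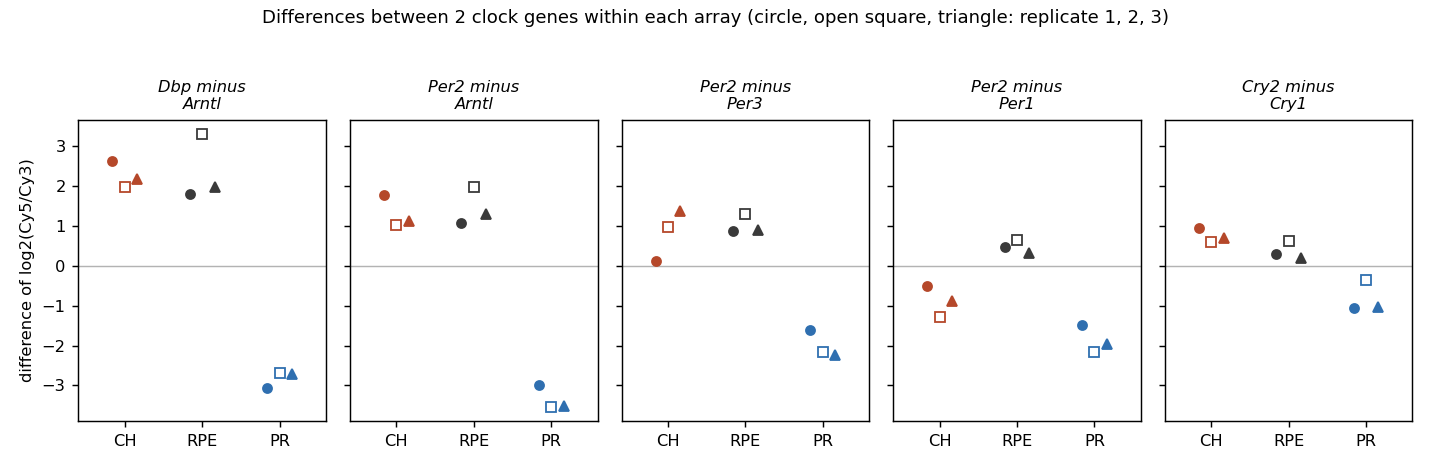
Differences of log2(Cy5/Cy3) between 2 clock genes within each of the 9 arrays, each gene relative to its own level in the reference. Dbp minus Arntl is 1.81 or more in CH and RPE and -2.68 or less in PR.

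By the adjusted p alone, 3 of 10 members passed in RPE against PR (39.7% of all probes, 20.3% higher in RPE and 19.4% higher in PR). In CH against PR 6 of 10 members passed (43.6% of all probes), of which Per1, Per2 and Dbp were higher in CH (21.6% of all probes) and Arntl, Per3 and Cry1 higher in PR (22.0%). The arrays of 3 members did not overlap between RPE and CH (38.4% of all probes), of 6 members between RPE and PR (58.0%) and of 8 members between CH and PR (61.4%). These shares of the members were near those of all probes in RPE against PR and larger in CH against PR, on 10 genes. All probes include dim ones, since 22287 of 39429 were well above background on all arrays, as were all members but Npas2. The members not overlapping between RPE and PR include Npas2, whose signal was dim. Its closest arrays were RPE 3 at -1.016 and PR 1 at -1.009. The median log2 difference of the members was 0.19, -0.19 and -0.091 in RPE against CH, RPE against PR and CH against PR, beside 0.039, -0.0072 and -0.056 over all probes.

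The layers were checked by marker genes. Of the rod markers 8 of 8, and of the cone markers 5 of 5, were called higher in PR than in RPE and CH, and the log2 of the summed Cy5 signal of the rod list was 21.2 to 21.7 in PR, 19.7 to 20.1 in RPE and 19.1 to 19.8 in CH, so rod transcripts were present in all layers. Of the RPE markers 5 of 7 were called higher in RPE than in CH and 6 of 7 higher than in PR, with sums of 20.9 to 21.0 in RPE, 20.4 to 20.8 in CH and 18.2 to 18.7 in PR. Of these markers 6 of 7 were also called higher in CH than in PR, so RPE transcripts were present in CH too. Of 5 endothelial markers none was called between RPE and CH. The part of such sharing in the lack of clock calls between RPE and CH was not tested. Cy5 was saturated for Rpe65, Rdh5, Ttr and Rgr on all 3 RPE arrays, and for Ttr on all 3 CH arrays. It was saturated for Sag, Gnat1 and Prph2 on all 3 PR arrays, so the sums can understate differences between layers. Arntl moved with the rod and cone lists, and Per2 and Dbp with the RPE list and with those of fibroblasts (6 of 6 called higher in RPE than in PR), endothelium (4 of 5), melanocytes (4 of 4), Muller glia (3 of 4), leukocytes (2 of 4), muscle (2 of 4) and red blood cells (1 of 2). Their part in these results was not tested. The arrays lay on 3 slides, CH 1, CH 3, RPE 1 and RPE 3 on slide 1, replicate 2 of each layer on slide 2 and PR 1 and PR 3 on slide 3, so for PR 1 and PR 3 slide and layer cannot be told apart. Within slide 2 Arntl differed by -2.92, Per2 by 2.61 and Dbp by 3.07 in RPE against PR, and by -2.82, 1.75 and 1.84 in CH against PR, with 1 array on each side and no test. RPE 2 stood apart with 91.8% of its spots well above background in Cy5, against 63.1% to 71.9% on the other arrays, and the 3 called members were called without it as well.

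The spread between arrays of a layer differed among the members. Over the probes well above background on all arrays (22287), the median SD within layers was 0.17. Per3 (SD 0.42, percentile 95.1), Dbp (0.36, percentile 91.5) and Cry1 (0.34, percentile 90.2) were among the most variable probes, followed by Clock (0.30, percentile 85.8) and Arntl (0.25, percentile 77.0). Per2 (0.21, percentile 66.6), Per1 (0.18, percentile 53.3) and Nr1d1 (0.16, percentile 45.4) were near the median, and Cry2 (0.11, percentile 21.6) varied least, although its other probe was at percentile 91.4. In each of the most variable genes a different array stood apart. CH 1 lay 0.81 above the mean of its layer in Per3, RPE 2 lay 0.63 above it in Dbp and 0.52 in the other Dbp probe, and PR 2 lay -0.62 from it in Cry1. The time of day of collection of each eye, which could be set against these deviations, is not given in the sources used here.

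**Figure D4:**
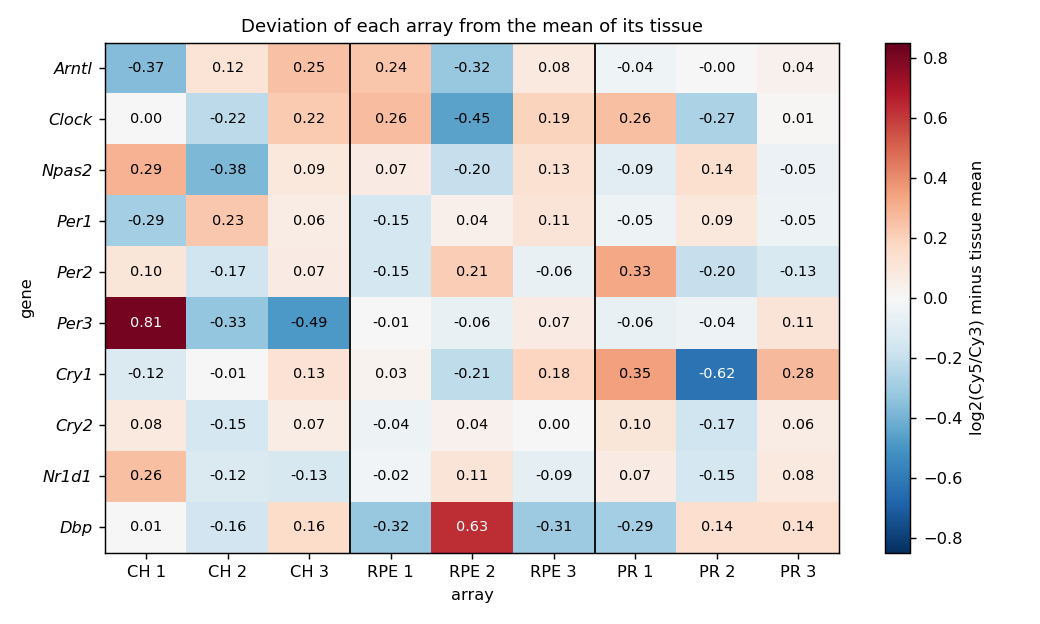
Deviation of log2(Cy5/Cy3) on each array (columns) from the mean of its layer, for the 10 clock genes (rows); red is above and blue below the mean. The largest deviations are CH 1 in Per3 (0.81), RPE 2 in Dbp (0.63) and PR 2 in Cry1 (-0.62).

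Other genes of the clock pathway, a list of 20, were all on the array. In RPE against CH none of the 20 was called, 3 (Csnk1e, Timeless and Arntl2, all higher in CH) passed the adjusted p alone by their brightest probe and by no other probe, and the median difference was 0.074. In RPE against PR 4 were called higher in RPE (10.2% of all probes) and 2 higher in PR (5.22%). In CH against PR 6 were called higher in CH (12.0%) and 3 higher in PR (6.40%). The medians were 0.29 and 0.25, beside -0.0072 and -0.056 over all probes.

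Rora and Rorb, orphan receptors that act on the RRE of Arntl, were called higher in PR. Rora was -1.01 to -1.41 in CH, -0.65 to -1.01 in RPE and 0.70 to 1.21 in PR, and differed by -1.77 (SE 0.16, adjusted p 8.53e-06) in RPE against PR and by -2.15 (SE 0.16, adjusted p 1.74e-06) in CH against PR. Rorb differed by -1.58 (SE 0.14, adjusted p 7.72e-06) and -2.09 (SE 0.14, adjusted p 8.56e-07). Both were thus higher in PR, like Arntl, and their arrays in PR did not overlap those of the other layers. Nr1d2, the paralogue of Nr1d1, did not pass in any comparison, with 0.15 (adjusted p 0.561) in RPE against PR and 0.46 (adjusted p 0.0695) in CH against PR. Its other probe did not pass either and had the other sign, at -0.13 (adjusted p 0.522) and -0.28 (adjusted p 0.147).

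The D-box factors related to DBP were lower in PR, like Dbp. Hlf was called in RPE against PR (1.68, SE 0.21, adjusted p 7.54e-05) and in CH against PR (1.82, SE 0.21, adjusted p 3.51e-05). Tef passed the adjusted p with a smaller FC, at 1.17 (SE 0.12, adjusted p 1.65e-05) and 1.03 (SE 0.12, adjusted p 3.44e-05). Nfil3, which represses through D-boxes, was higher in PR, at -0.96 (SE 0.16, adjusted p 0.0006) and -1.16 (SE 0.16, adjusted p 0.000143), and its FC was below 2.5 in both.

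Of the further repressors, Bhlhe40 (DEC1), which competes for E-boxes, had log2 ratios of 0.042, -0.10 and -0.059 in CH, 0.20, 0.29 and 0.089 in RPE, and -2.40, -2.14 and -2.43 in PR. It was called lower in PR, at 2.52 (SE 0.11, adjusted p 5.92e-08) against RPE and 2.28 (SE 0.11, adjusted p 7.57e-08) against CH. Ciart, an inhibitor of the ARNTL and CLOCK pair, was called lower in PR too, at 1.78 (SE 0.23, adjusted p 0.000116) and 1.94 (SE 0.23, adjusted p 5.41e-05). Bhlhe41, the relative of Bhlhe40, passed in no comparison (-0.22, adjusted p 0.328, and -0.35, adjusted p 0.121). Its other probe, well above background on no CH array, gave 0.063 and 0.24. Of the kinases, ligases and partners, Fbxl21 was called lower in PR in both comparisons by its brighter probe (1.52 and 1.40, SE 0.15). Fbxl21 is an F-box protein that binds the cryptochromes. The other Fbxl21 probe did not pass (0.23, adjusted p 0.175, and 0.22, adjusted p 0.177). That probe was dim, well above background on 1 array of CH, 1 of RPE and 2 of PR. In CH against PR alone Csnk1e, a kinase of the PER proteins (1.68, SE 0.090, adjusted p 1.76e-07), and Timeless (1.95, SE 0.093, adjusted p 8.80e-08) were called higher in CH, and Btrc, a ligase subunit that takes PER for degradation (-1.43, SE 0.18, adjusted p 7.50e-05), higher in PR. In RPE against PR these 3 passed the adjusted p with an FC below 2.5. The other probe of Csnk1e did not pass (0.047 and 0.23), that of Btrc passed the adjusted p with an FC below 2.5 in CH against PR (-1.15), and that of Timeless was called there (1.58). Arntl2, the paralogue of Arntl, differed by -0.47 (SE 0.11, adjusted p 0.00573) in RPE against PR and by 0.23 (SE 0.11, adjusted p 0.121) in CH against PR. Its other 2 probes gave -0.20 and -0.60 in the first and 0.0080 and -0.50 in the second. Both were dim, well above background on no CH array and on 1 RPE array each.

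**Figure D5:**
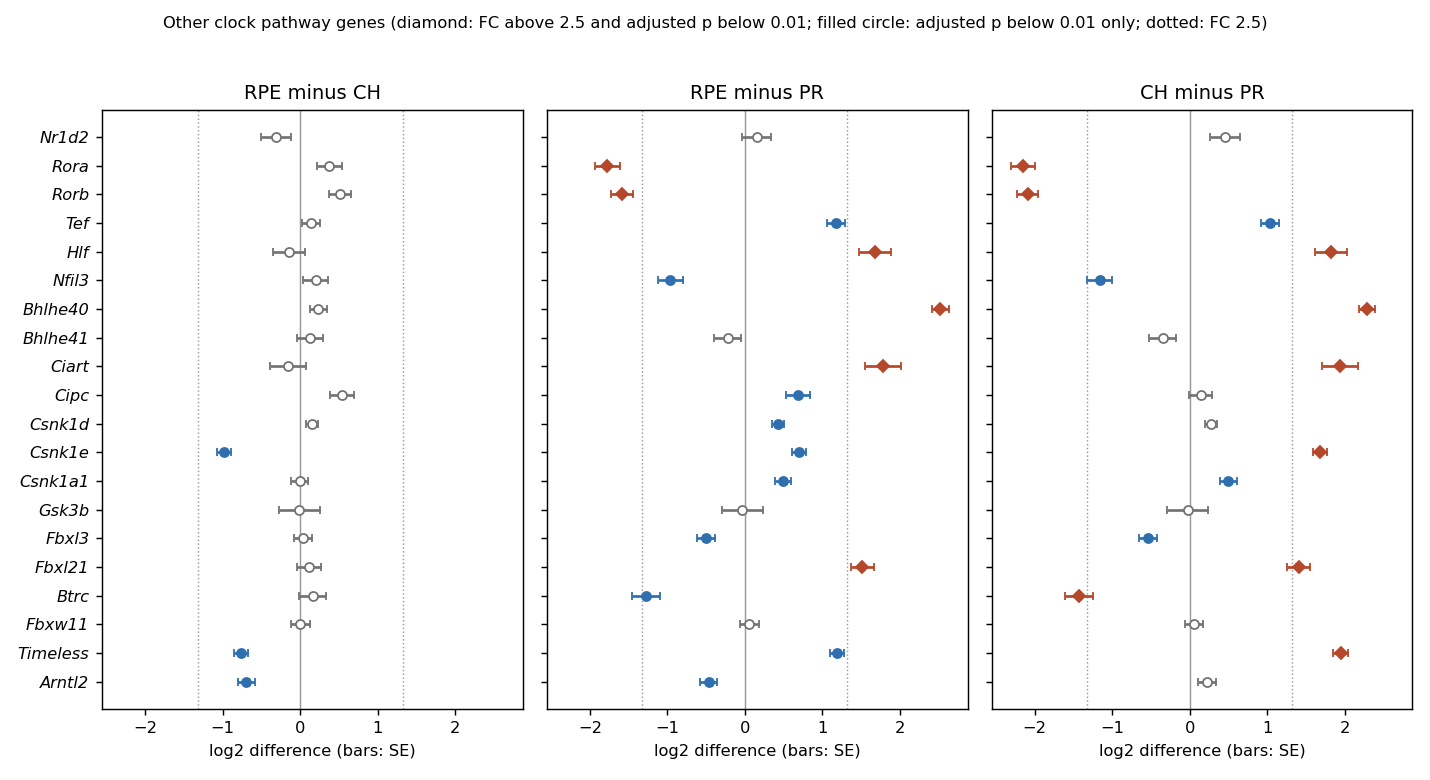
log2 differences with SE for the 20 other clock pathway genes in the 3 comparisons; dotted lines mark an FC of 2.5. Rora and Rorb lie left of the lines and Hlf, Bhlhe40, Ciart and Fbxl21 right of them in both comparisons with PR, and no gene passes both thresholds between RPE and CH.

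The probes whose values over the 9 arrays were most like those of the 3 called members were listed among the 22287 probes well above background on all arrays, by Pearson's r as a description. All arrays share the reference and fall into 3 layers, so r mostly reflects the means of the layers. For Arntl the nearest named gene was Grk1, the rhodopsin kinase of photoreceptors (r = 0.9996), with layer means of -1.22 in CH, -0.87 in RPE and 2.31 in PR, and 2329 probes had an r above 0.95. For Per2 the nearest were Rrbp1 (r = 0.998) and Mccc1 (r = 0.994), with 1550 probes above 0.95. For Dbp they were Nudt16l1 (r = 0.992) and Metrn (r = 0.991), with 1288 probes above 0.95. Many probes thus had a pattern close to that of Arntl.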

How the data were processed

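The 9 arrays, 3 each of CH, RPE and PR, were scanned by the authors with Agilent Feature Extraction 9.5.3.1, and each deposited scanner file gives mean spot and local background intensity in Cy5 and Cy3 (43020 spots without controls). The deposited log10 ratio of Feature Extraction and the authors' log2 value table, which follows log2 Cy5 (r 0.985 to 0.999) with normalization steps not named, were used as alternatives. The submitters' notes also name R 2.14.0 and limma. Here limma 3.58.1 (R 4.3.3) corrected the background by normexp (offset 50), normalized by loess, left out outlier-marked spots, averaged repeated spots of a probe (399 probes) and fitted 1 mean per layer over all 39429 probes with variances moderated by empirical Bayes and p-values adjusted by Benjamini-Hochberg. A call needed an FC above 2.5 and an adjusted p below 0.01. The fit was tested on simulated data. The brightest probe of a gene, by mean log2 Cy5 after Aquantile normalization, stood for the gene, and of the 20 other pathway genes those called were named, the others named being chosen after their values were seen; 1 listed gene is not reported here. Likeness was listed for the 3 nearest probes of each called member. Cy5 always held the tissue and dyes were not swapped, so ratios are open to dye bias. The number of arrays limits the precision. The p-values rest on the spread between arrays of a layer, 1 eye each, in which eye, labelling and slide are not separated. The sources do not say whether layers shared animals. The members and lists were chosen with earlier results of these data known. Promoters were read with Python 3.11.15 and pandas 2.3.3, and positions of probes in exons were not analysed here.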

Additional observations from a re-analysis of the deposited data

How the results depend on the processing

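The 3 called members, Arntl, Per2 and Dbp, were called in both comparisons with PR under every alternative with a test. Of 687 values of single members from alternatives with a fit, 663 kept direction and call, 6 became called, 18 changed sign and none lost a call, where a call needs both the FC and the adjusted p. Of 40 values within slides, which have no test, 10 moved by more than the spread between arrays and 3 had the other sign, all in RPE against CH (Arntl -0.10 and Clock -0.22 on slide 2, Nr1d1 -0.12 on slide 1). The count of members called in CH against PR was 5 with the Feature Extraction log ratio and 5 at an FC above 2, both by adding Per3 and Cry1, and 6 by the adjusted p alone, by which the count in RPE against CH was 1. Leaving out each array in turn gave 0 in RPE against CH, 3 in RPE against PR and 3 to 4 in CH against PR, where Per3 was added without CH 1 and Cry1 without CH 3 or PR 2. Without slide 2, an alternative chosen after seeing the data, CH against PR had 4. The 18 sign changes were in values that were not called. Nr1d1 in RPE against CH was -0.00078 with no background correction, -0.23 with median centring and -0.12 without slide 2, and -0.065 to 0.13 when single arrays were left out (below 0 without CH 2, CH 3 or RPE 2), and with the Feature Extraction ratio it was -0.059 in RPE against PR and -0.069 in CH against PR. Clock in RPE against CH was -0.015 with the Feature Extraction ratio, -0.26 with median centring and -0.12 to 0.24 when single arrays were left out (below 0 without CH 2, RPE 1 or RPE 3). In RPE against CH, Cry2 was -0.17 with median centring and -0.22 with the median of its probes. There Npas2, whose probe was not well above background on any CH array, was -0.047 on Cy5 alone and -0.048 in the value table. It was -0.092 to 0.24 when single arrays were left out (below 0 without CH 2). The cause was not tested. With a replicate block the counts were 0, 3 and 3, and with a slide block 0, 3 and 3, and no call changed. Deviations of same-numbered arrays correlated at -0.128 to 0.357 over 9 pairs. Arrays of other numbers ranged from -0.372 (RPE 3 and PR 2) to 0.276 (CH 3 and PR 1). The arrays of replicate 2 also shared slide 2, so number and slide cannot be told apart there. These values cannot decide whether samples were paired, and the numbers were not taken to pair them.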
